A study of Mus musculus with 9 samples.

Results

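The 40 genes described here encode lysosomal enzymes and proteins of the lysosomal membrane: 8 cysteine proteases (cathepsins and legumain), 4 other acid hydrolases of proteins (cathepsin D, cathepsin A, tripeptidyl peptidase and palmitoyl protein thioesterase), 13 glycosidases, 5 sulfatases with the acid phosphatase Acp2, 8 membrane proteins and the progranulin gene Grn. They were taken as the rows of the deposited gene table whose Ensembl identifiers carry these gene symbols. The rule also asked for counts above 10 in at least 3 libraries, and the list was drawn up with earlier results of these data known. All 40 were found among the 54432 genes of the table. By that rule all 40 were among the 12637 genes that were tested, which had counts above 10 in 3 libraries or more.

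RNAseq had been performed on RAW 264.7 cells, a macrophage-like line derived from a mouse tumour. The libraries formed 3 groups of 3: untreated control cells, cells given VLDL-sized emulsion particles at 1 mM for 6 hours, and cells given CHYL-sized (chylomicron-sized) emulsion particles at 1 mM for 6 hours. Both emulsions were made of sunflower oil with sodium caseinate as the emulsifier and differed in particle size. Control cells received no emulsion, so oil, emulsifier and the addition of particles cannot be told apart in any comparison with control. According to the methods, each library pooled the wells of 1 condition from 1 of 3 experiments on a single cell line, so the p-values measure the spread between these 3 samples per group. Lysosomal proteins act after transcription, processing and sorting, and the libraries measured only the RNA.

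Lysosomes are acidic compartments in which proteases, glycosidases, sulfatases, lipases and phosphatases take apart material that the cell has engulfed or set aside for renewal. Most of the soluble enzymes are made as precursors, tagged with mannose 6-phosphate in the Golgi and delivered by receptors, while heavily glycosylated membrane proteins such as LAMP1 and LAMP2 line the compartment. Macrophages are rich in lysosomes, where cathepsins digest engulfed protein and acid lipase splits the triglycerides and cholesteryl esters of lipoprotein particles. Many lysosomal genes carry in their promoters a sequence containing CACGTG, to which transcription factors of the TFEB, TFE3, MITF and TFEC family can bind.

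Depth was even, at 22393893 to 22856792 estimated counts per library. Of 10 macrophage markers all were detected, with summed levels of 7527 to 7762 cpm in control libraries, 6322 to 6656 cpm after VLDL-sized and 6551 to 6900 cpm after CHYL-sized particles, scaled to library size alone. The defining markers of epithelial cells were at 0 in every library and those of T and B cells did not exceed 7 counts. Of 5 fibroblast markers none exceeded 55 counts and 1 passed the filter. That marker was not called against control after either particle (log2 fold change 0.15 and 0.44). Among 9 osteoclast markers, a fate open to RAW 264.7 cells, 3 passed the filter. The sum of the osteoclast list was 63.2 to 65.4 cpm in control, 52.8 to 59.9 cpm after VLDL-sized and 55.2 to 61.3 cpm after CHYL-sized particles, with Dcstamp higher (log2 fold change 0.51 and 0.52) and Nfatc1 lower (-0.31 and -0.31) after the particles. The replicate 3 libraries stood apart from the others in all 3 groups: on the second principal component of all tested genes they lay at -17.9 to -22.6 and the other 6 libraries at 5.96 to 16.1. Values with and without them are given where they bear on a result.

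Promoter sequences of 37 of the 40 genes were in the RefSeq table for GRCm38.p6, as windows from 250 bases before to 50 bases after each annotated start. Ctsb, Ctsh and Galns had no entry. CACGTG was present in the windows of 13 of the 37 genes (35.1%), against 8.09% of all 27025 genes with a window. The longer palindrome TCACGTGA, which contains it and reads the same on both strands, was present in 5 of the 37 (13.5%: Cd164, Cln3, Ctsa, Ctsd and Gla), against 1.12% of all genes. Of the 14 genes whose RNA level passed the test below in either comparison, 5 had CACGTG in a window, namely Ctsd, Ctsl, Gaa and Gla, which rose, and Sgsh, which fell. Of the 23 windowed genes that passed in neither, 8 had it. A match is a description of these letters and not evidence of binding. The 37 were all tested genes, while the 27025 were not limited to tested genes. The shares of all genes are thus not matched to the 37 for expression. The stretches that hold the matches before the start are shown for those 5 genes and for Lamp1, which had the most matches, with CACGTG or TCACGTGA in capitals.
Gla, chrX:134601178-134601248, minus strand: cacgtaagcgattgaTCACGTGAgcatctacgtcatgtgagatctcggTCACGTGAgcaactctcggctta
Ctsd, chr7:142387904-142388077, minus strand: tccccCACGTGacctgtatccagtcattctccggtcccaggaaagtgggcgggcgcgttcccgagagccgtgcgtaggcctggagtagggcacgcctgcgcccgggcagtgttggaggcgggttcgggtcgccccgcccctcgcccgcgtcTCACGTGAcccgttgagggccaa
Ctsl, chr13:64370735-64370770, minus strand: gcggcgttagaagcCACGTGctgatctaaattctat
Gaa, chr11:119267807-119267844, plus strand: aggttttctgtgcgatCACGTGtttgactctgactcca
Sgsh, chr11:119355518-119355555, minus strand: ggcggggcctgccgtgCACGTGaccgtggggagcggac
Lamp1, chr8:13159084-13159160, plus strand: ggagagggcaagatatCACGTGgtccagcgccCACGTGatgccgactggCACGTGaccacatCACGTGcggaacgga
Counted back from the start, with -1 as the base before it, CACGTG began at -227 and -194 in Gla, at -245 and -98 in Ctsd, at -236 in Ctsl, at -140 in Gaa, at -29 in Sgsh and at -61, -45, -28 and -15 in Lamp1. The other genes that passed had no CACGTG in their windows: Hyal1, Scarb2, Hexa, Ctsz, Idua and Lamp2, which rose, and Ctsc, Ppt1 and Arsb, which fell.

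In untreated cells these genes were abundant, and their levels spread widely. Together they took between 2.28% and 2.58% of all counts in each library. Per kilobase of exon, Ctsd, the main aspartic protease of the lysosome, had 2524 normalized cpm per kb in control cells and ranked 11 of the 12636 tested genes with an annotated length. The cysteine proteases Ctsz (800.1) and Ctsb (751.9) followed, ahead of Lamp1, a main glycoprotein of the lysosomal membrane (435), Ctss (423), Grn (408) and the macrophage membrane protein Laptm5 (395). At the other end stood Idua (3.35), Galc (2.54), Hyal1 (2.01) and Ctsk, the collagen-degrading protease of osteoclasts, at 0.951 normalized cpm per kb. The median of the 40 was 39.8 against 5.65 for all genes with a length, 36 of the 40 were above that median and 19 were among the top 10%. With the longest transcript as the length the order was nearly the same (Spearman's rho 0.991 across the 40 genes), but Ctsb then came before Ctsz and 3 of the first 5 genes were shared.

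**Figure D1:**
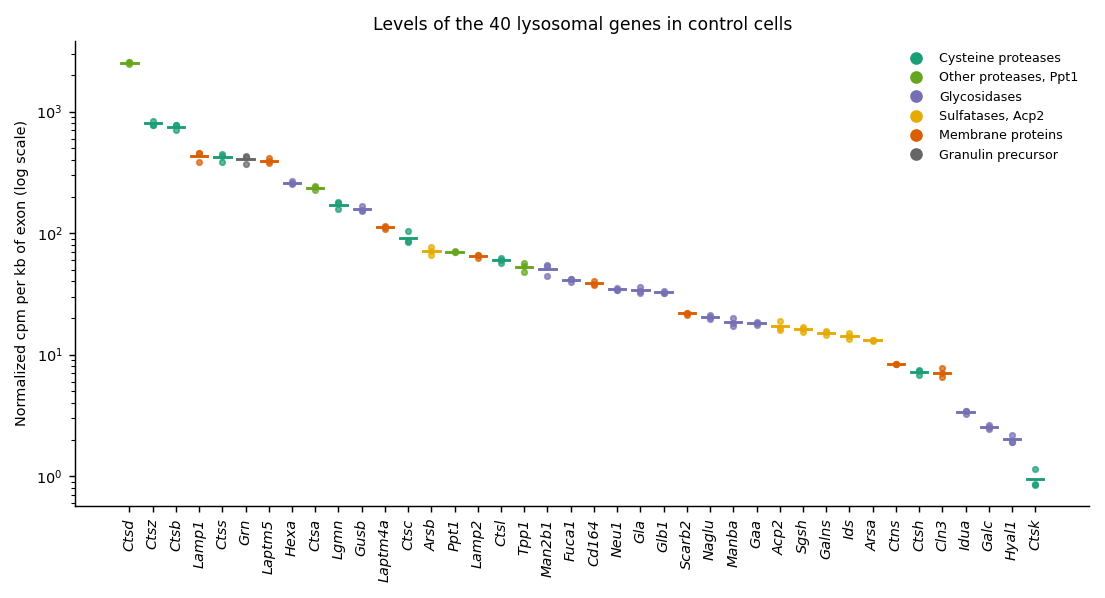
Level of each of the 40 genes in control cells, in TMM-normalized cpm per kb of exon on a log axis, ordered from highest to lowest and coloured by role. Points are the 3 control libraries and bars their mean; the mean falls from 2524 for Ctsd to 0.951 for Ctsk, and most of the highest genes are proteases and membrane proteins.

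After VLDL-sized particles 10 of the 40 genes rose and 4 fell, with 26 not passing (limma, Benjamini-Hochberg adjusted p under 0.05 over all 12637 genes). Of all genes tested 17.8% rose and 17.9% fell, against which stand the 25.0% of these lysosomal genes that rose and the 10.0% that fell. Whether these shares differ was not tested. After CHYL-sized particles 6 rose and 3 fell, which was 15.0% and 7.50% of the 40 against 12.7% and 13.0% of all genes. The rises were mostly small. The absolute log2 fold change exceeded 0.5 for 4 genes after VLDL-sized particles (10.0%, against 19.3% of all genes) and for 3 after CHYL-sized particles (7.50%, against 14.3%). The median log2 fold change of the 40 was 0.0019 after VLDL-sized and -0.016 after CHYL-sized particles, against -0.00028 and 0.0013 over all genes. For 16 of the 40 genes the 3 VLDL-sized libraries all lay on one side of the 3 control libraries, as they did for 47.4% of all genes, and for 18 the CHYL-sized libraries did, against 41.7%.

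The split between rises and falls depended on the scaling. With library size alone, in place of TMM factors, the median of all genes moved to -0.094 after VLDL-sized and -0.079 after CHYL-sized particles, and the counts became 4 higher and 7 lower, and 3 higher and 6 lower. At that scaling 11.9% of all genes rose and 26.2% fell after VLDL-sized and 8.45% rose and 19.9% fell after CHYL-sized particles. The genes that rose under both scalings after VLDL-sized particles were Hyal1, Gla, Idua and Scarb2, and the small rises of Ctsl, Ctsz, Ctsd, Hexa, Gaa and Lamp2 did not pass with library size alone. Every value below is on the TMM scale, as normalized cpm for a level and as log2 fold change for a difference, with its SE from limma, and is relative to the bulk of genes. Both comparisons use the same 3 control libraries.

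**Figure D2:**
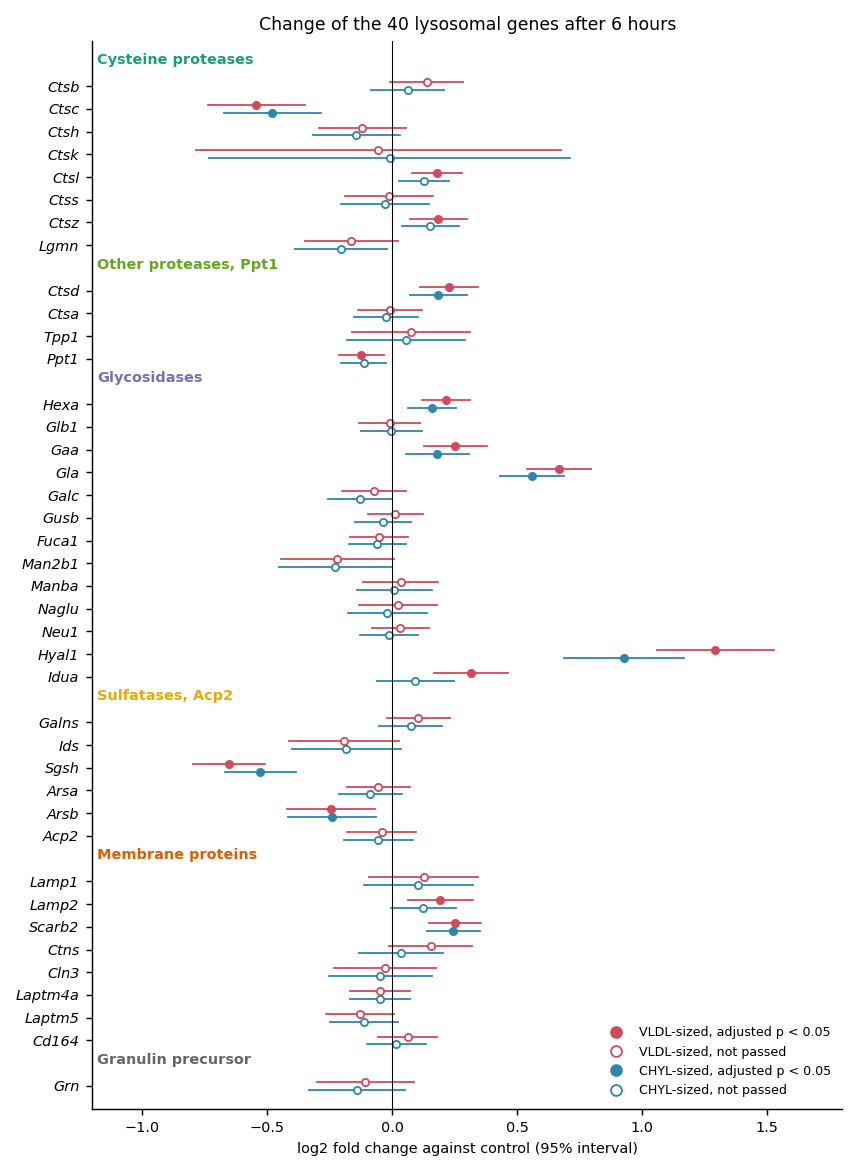
Log2 fold change of the 40 genes against control after VLDL-sized (red) and CHYL-sized (blue) particles, grouped by role, with 95% intervals from limma. Filled points have an adjusted p under 0.05; Hyal1 (1.29 and 0.93) and Gla (0.67 and 0.56) lie farthest to the right, Sgsh and Ctsc farthest to the left, and 26 genes have open points in both colours.

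Among the 8 cysteine proteases Ctsl and Ctsz rose and Ctsc fell after VLDL-sized particles, and Ctsc alone passed after CHYL-sized particles. Ctsc (ENSMUSG00000030560, chr7:88278085-88310888 on GRCm38) encodes cathepsin C, the dipeptidyl peptidase that activates granule serine proteases. It had 495, 499.9 and 603 normalized cpm in the control libraries, 344, 358 and 393 after VLDL-sized and 362, 365 and 417 after CHYL-sized particles. Every control library was above every particle library. The log2 fold change was -0.54 (SE 0.09, adjusted p = 0.00075) after VLDL-sized and -0.48 (SE 0.09, adjusted p = 0.0025) after CHYL-sized particles. Ctsl, which encodes the endopeptidase cathepsin L, had 369.9, 402 and 389.6 normalized cpm in control, 438, 432 and 443 after VLDL-sized and 423, 429 and 415 after CHYL-sized particles. Neither particle group overlapped control, but the rise was small, with a log2 fold change of 0.18 (SE 0.04, adjusted p = 0.010) and 0.13 (SE 0.04, adjusted p = 0.063). Without control replicate 1, its lowest library, Ctsl did not pass after VLDL-sized particles either (adjusted p = 0.055).

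Ctsz encodes cathepsin Z, a carboxypeptidase. Its level was 1126, 1123 and 1209.9 normalized cpm in control, 1318, 1255 and 1354 after VLDL-sized and 1238, 1274 and 1331 after CHYL-sized particles. Groups did not overlap with control, and the log2 fold changes were 0.18 (SE 0.05, adjusted p = 0.018) and 0.15 (SE 0.05, adjusted p = 0.052). The call after VLDL-sized particles was lost without control replicate 1 or 2 or VLDL-sized replicate 1 or 3 (adjusted p = 0.052 to 0.072), and after CHYL-sized particles the gene passed without control replicate 3 (0.026) or VLDL-sized replicate 3 (0.045). Ctsb, Ctsh, Ctss, Lgmn and Ctsk did not pass after either particle. Ctsb, the abundant cathepsin B, went from 4549.7 ± 277 (SD, n = 3) in control to 5006 ± 341 and 4746 ± 241 normalized cpm, with log2 fold changes of 0.14 (adjusted p = 0.13) and 0.06 (0.55), and passed after VLDL-sized particles without VLDL-sized replicate 3 (0.040). Lgmn, the asparaginyl endopeptidase that trims cathepsins, had log2 fold changes of -0.16 (adjusted p = 0.16) and -0.20 (0.10). It passed after CHYL-sized particles without control replicate 3 (0.046) or VLDL-sized replicate 3 (0.039). Ctss, which processes the MHC class II invariant chain, was at 575 ± 45.2, 569.9 ± 43.5 and 563 ± 42.2 normalized cpm in control, VLDL-sized and CHYL-sized libraries.

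Of the other protein hydrolases Ctsd rose after both particles and Ppt1 fell after VLDL-sized particles. Ctsd had 5994, 6033 and 5772 normalized cpm in control, 7382, 6847 and 6625 after VLDL-sized and 6688, 6993 and 6546 after CHYL-sized particles. All 6 particle libraries exceeded all 3 control libraries. The log2 fold change was 0.23 (SE 0.05, adjusted p = 0.0060) and 0.18 (SE 0.05, adjusted p = 0.024). Since Ctsd was the most abundant of the 40 genes, this small fold was the largest rise in normalized cpm among them. The CHYL-sized call was lost in turn without any control library and without CHYL-sized replicate 1 or 2 (adjusted p = 0.056 to 0.093).

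Ppt1, which removes palmitate from proteins, had 255, 259 and 255 normalized cpm in control, 232, 239 and 235 after VLDL-sized and 233, 242 and 237 after CHYL-sized particles. The groups were tight and neither particle group overlapped control, and the log2 fold changes were -0.12 (SE 0.04, adjusted p = 0.036) and -0.11 (SE 0.04, adjusted p = 0.062). The VLDL-sized call was lost without any one of the 3 control libraries, any one of the 3 VLDL-sized libraries or CHYL-sized replicate 2 (adjusted p = 0.050 to 0.11). Tpp1, a tripeptidyl peptidase, had 295, 276 and 248 normalized cpm in control, 317, 304 and 245 after VLDL-sized and 294, 306 and 251 after CHYL-sized particles, with the lowest value of each group in replicate 3 (log2 fold change 0.08, adjusted p = 0.62, and 0.06, adjusted p = 0.75). Ctsa, the protective protein of β-galactosidase and neuraminidase, was at 1119 ± 47.6, 1113 ± 61.5 and 1099.6 ± 55.7 normalized cpm.

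The glycosidases held the largest rises. After VLDL-sized particles 5 of 13 rose and none fell, against 17.8% and 17.9% of all genes tested. After CHYL-sized particles 4 rose and none fell, against 12.7% and 13.0%. With library size alone 3 rose and 1 (Man2b1) fell, and 2 rose and 1 (Galc) fell. At that scaling 11.9% of all genes rose and 26.2% fell, and 8.45% rose and 19.9% fell. The median log2 fold change of the 13 on the TMM scale was 0.03 and -0.004. Whether these shares differ was not tested. Hyal1 (ENSMUSG00000010051, chr9:107576927-107581710), which cuts hyaluronan, had 7.27, 8.32 and 7.18 normalized cpm in control, 20.2, 17.4 and 18.2 after VLDL-sized and 14.7, 13.1 and 15.5 after CHYL-sized particles. The 3 groups did not overlap, with VLDL-sized libraries highest. The log2 fold change was 1.29 (SE 0.11, adjusted p = 8.55e-06), a 2.45-fold rise, after VLDL-sized and 0.93 (SE 0.11, adjusted p = 0.00016), a 1.90-fold rise, after CHYL-sized particles. Of the exon bases of Hyal1, 50.8% are shared on the same strand with Naa80, an actin acetyltransferase gene, so the division of reads between them is uncertain. Naa80 itself went from 13.7 ± 0.659 to 26.0 ± 1.06 and 21.6 ± 3.12 normalized cpm. The sum of the pair was 20.5, 21.7 and 21.6 in control, 47.5, 42.9 and 43.6 after VLDL-sized and 32.7, 35.9 and 39.5 normalized cpm after CHYL-sized particles, which was 2.10 times control after VLDL-sized particles.

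Gla (ENSMUSG00000031266, chrX:134588149-134601125) encodes α-galactosidase A, which removes terminal galactose from globotriaosylceramide. Its level was 106, 108 and 118 normalized cpm in control, 180.4, 165 and 182 after VLDL-sized and 158, 163 and 168 after CHYL-sized particles. Every particle library was well above control. The log2 fold change was 0.67 (SE 0.06, adjusted p = 1.32e-05), a 1.59-fold rise, and 0.56 (SE 0.06, adjusted p = 7.59e-05), a 1.47-fold rise. Idua, the iduronidase of heparan and dermatan sulfate breakdown, had 14.4, 14.4 and 13.6 normalized cpm in control, 17.7, 17.8 and 17.1 after VLDL-sized and 15.3, 14.6 and 15.2 after CHYL-sized particles. It passed after VLDL-sized particles (log2 fold change 0.31, SE 0.07, adjusted p = 0.0043) and not after CHYL-sized particles (0.09, SE 0.07, adjusted p = 0.37).

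Gaa and Hexa rose by less. Gaa, the acid α-glucosidase that degrades glycogen, had 88.2, 87.0 and 83.9 normalized cpm in control, 109, 102 and 98.2 after VLDL-sized and 101, 101 and 92.0 after CHYL-sized particles. Both particle groups were above control throughout, with log2 fold changes of 0.25 (SE 0.06, adjusted p = 0.0058) and 0.18 (SE 0.06, adjusted p = 0.041). Hexa, the α subunit of β-hexosaminidase, had 514, 531 and 504 normalized cpm in control, 609, 592 and 595 after VLDL-sized and 578, 592 and 559 after CHYL-sized particles. Groups did not overlap with control, and the log2 fold changes were 0.21 (SE 0.04, adjusted p = 0.0032) and 0.16 (SE 0.04, adjusted p = 0.022). The CHYL-sized calls were fragile: that of Gaa was lost without any one control library, VLDL-sized replicate 2 or CHYL-sized replicate 1 or 2 (adjusted p = 0.058 to 0.13), and that of Hexa without control replicate 1 or 3 or CHYL-sized replicate 1 or 2 (0.054 to 0.083). The other 8 glycosidases did not pass: the β-galactosidase Glb1, the galactosylceramidase Galc, the β-glucuronidase Gusb, the fucosidase Fuca1, the mannosidases Man2b1 and Manba, the α-N-acetylglucosaminidase Naglu and the neuraminidase Neu1. Apart from Man2b1 their log2 fold changes were between -0.07 (Galc) and 0.03 (Manba) after VLDL-sized and between -0.13 (Galc) and 0.01 (Manba) after CHYL-sized particles. That of Man2b1, an α-mannosidase, was farthest from 0, at -0.22 (adjusted p = 0.12) and -0.23 (0.13). It passed in both comparisons without control replicate 3, which was its lowest control library (adjusted p = 0.030 and 0.035).

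**Figure D3:**
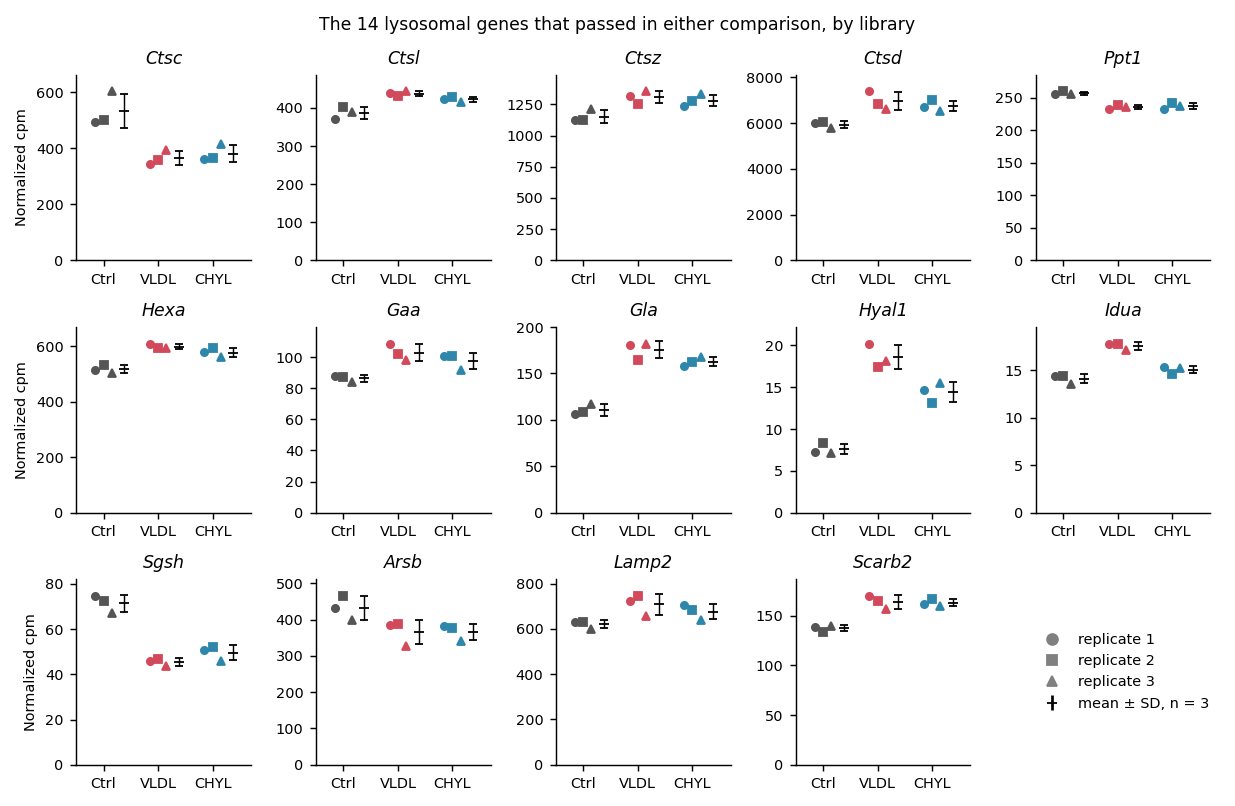
Normalized cpm of the 14 genes that passed in either comparison with control, in each of the 9 libraries, with a separate axis from 0 for each gene. Symbols mark the replicate number and the black bars the mean ± SD of 3 libraries; Hyal1, Gla, Sgsh and Ctsc show the widest gaps between control and particle libraries, and the other 10 differ from control by smaller steps.

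Of the 5 sulfatases and Acp2, Sgsh and Arsb fell after both particles and none rose. Sgsh (ENSMUSG00000005043, chr11:119343425-119355536), the sulfamidase of heparan sulfate breakdown, had 74.7, 72.3 and 67.2 normalized cpm in control, 45.9, 46.7 and 43.5 after VLDL-sized and 50.6, 52.2 and 45.9 after CHYL-sized particles. All control libraries were above all particle libraries, with a log2 fold change of -0.65 (SE 0.06, adjusted p = 3.18e-05) after VLDL-sized and -0.53 (SE 0.06, adjusted p = 0.00020) after CHYL-sized particles. Among the other genes of heparan sulfate breakdown, Idua rose after VLDL-sized particles, and Naglu (log2 fold change 0.02, adjusted p = 0.83), Gusb (0.01, adjusted p = 0.88) and Ids did not pass.

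Arsb, arylsulfatase B, which acts on dermatan and chondroitin sulfate, had 433, 466 and 400.1 normalized cpm in control, 384, 387 and 327 after VLDL-sized and 382, 376 and 341 after CHYL-sized particles. No particle library reached the lowest control library. Its log2 fold changes were -0.24 (SE 0.08, adjusted p = 0.036) and -0.24 (SE 0.08, adjusted p = 0.048). The VLDL-sized call was lost without control replicate 1 or 2, VLDL-sized replicate 3 or CHYL-sized replicate 2 (adjusted p = 0.050 to 0.13), and the CHYL-sized call without any library but control replicate 3 and VLDL-sized replicate 3 (0.057 to 0.17). Ids, iduronate sulfatase, had 76.7, 73.0 and 68.2 normalized cpm in control, 67.1, 69.6 and 54.7 after VLDL-sized and 68.1, 67.7 and 56.6 after CHYL-sized particles, with the replicate 3 library lowest in each group (log2 fold change -0.19, adjusted p = 0.16, and -0.18, adjusted p = 0.21). Galns, Arsa and the acid phosphatase Acp2 had log2 fold changes between -0.09 and 0.10 in both comparisons and did not pass.

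Of the 8 membrane proteins Scarb2 rose after both particles and Lamp2 after VLDL-sized particles, while none fell; with library size alone Scarb2 kept its rise in both and Laptm5 fell after VLDL-sized particles. Scarb2 encodes LIMP-2, the receptor that carries β-glucocerebrosidase to the lysosome. It had 139, 134 and 139 normalized cpm in control, 170.1, 165 and 157 after VLDL-sized and 162, 167 and 159.9 after CHYL-sized particles. The particle groups lay above control and close to each other, with log2 fold changes of 0.25 (SE 0.05, adjusted p = 0.0019) and 0.24 (SE 0.05, adjusted p = 0.0034). Lamp2, a membrane glycoprotein also needed for autophagy, had 629.6, 630.0 and 600.0 normalized cpm in control, 724, 746 and 656 after VLDL-sized and 705, 684 and 640.3 after CHYL-sized particles. Neither particle group overlapped control, and the log2 fold change was 0.19 (SE 0.06, adjusted p = 0.027) and 0.12 (SE 0.06, adjusted p = 0.15). The call was lost without any one control library or VLDL-sized replicate 1 or 2 (adjusted p = 0.056 to 0.11).

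Ctns, the cystine exporter, had 28.4, 28.6 and 28.4 normalized cpm in control, 34.3, 31.7 and 29.2 after VLDL-sized and 31.3, 29.5 and 27.0 after CHYL-sized particles. The control libraries were nearly equal and the VLDL-sized libraries all above them, but it did not pass (log2 fold change 0.15, adjusted p = 0.14, and 0.04, adjusted p = 0.78). Lamp1 was at 1164 ± 115, 1271 ± 129 and 1251 ± 120.3 normalized cpm (log2 fold change 0.13, adjusted p = 0.35, and 0.10, adjusted p = 0.48). The transmembrane proteins Cln3, Laptm4a, Laptm5 and Cd164 did not pass, and Laptm5 (log2 fold change -0.13 after VLDL-sized particles, adjusted p = 0.13) passed without VLDL-sized replicate 1 (0.030). Grn, the precursor of the granulin peptides, had 1491, 1465 and 1292 normalized cpm in control, 1425, 1353 and 1172 after VLDL-sized and 1314, 1374 and 1167 after CHYL-sized particles. Again replicate 3 was lowest in each group, and the log2 fold changes were -0.11 (adjusted p = 0.38) and -0.14 (0.28).

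The 26 genes that passed in neither comparison had log2 fold changes between -0.22 and 0.15 after VLDL-sized and between -0.23 and 0.10 after CHYL-sized particles. Their 95% intervals, apart from that of Ctsk, lay within -0.45 and 0.34 and within -0.45 and 0.32, limits set by Man2b1 and Lamp1. For other genes they were narrower, as for Ctsa (-0.14 to 0.12 after VLDL-sized particles) and Fuca1 (-0.17 to 0.06). Ctsk was too low for more precision, at 1.44 ± 0.250 normalized cpm in control and a log2 fold change of -0.06 after VLDL-sized particles with an SE of 0.33.

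The spread of many of these genes followed the replicate number. In all 3 groups the replicate 3 library was lower than replicates 1 and 2 for 21 of the 40 genes, against 19.2% of all genes tested, and higher for 6 (Ctsc, Ctsz, Gla, Gusb, Manba and Cln3), against 18.8%. The difference of replicate 3 from replicates 1 and 2, averaged over the groups, had a median of -0.087 on the log2 scale over the 40 genes and of 0.0016 over all genes. For 19 of the 40 genes it was larger in size than the log2 fold change after VLDL-sized particles, against 33.5% of all genes. Lamp1 was lower in replicate 3 by a log2 difference of -0.26 in control, -0.26 in VLDL-sized and -0.25 in CHYL-sized libraries, and its log2 fold change after VLDL-sized particles was 0.13 over replicates 1 and 2 and 0.12 between the replicate 3 libraries. Gla (0.69 and 0.63), Hyal1 (1.27 and 1.34), Sgsh (-0.67 and -0.63) and Ctsc (-0.50 and -0.62) likewise had similar log2 fold changes over replicates 1 and 2 and within replicate 3. Some genes differed more, as Scarb2 (0.29 and 0.17), Ctns (0.21 and 0.04) and Tpp1 (0.12 and -0.02) did. Without the replicate 3 libraries 13 of the 40 genes rose and 6 fell after VLDL-sized particles (22.02% and 21.4% of all genes), and 10 rose and 6 fell after CHYL-sized particles (17.4% and 16.4%). Ctsb, Ctns and Lamp1 then joined the rises and Man2b1 and Lgmn the falls after VLDL-sized particles, and Ctsl, Ctsz, Lamp1 and Lamp2 the rises and Man2b1, Lgmn and Grn the falls after CHYL-sized particles. What sets replicate 3 apart was not tested.

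**Figure D4:**
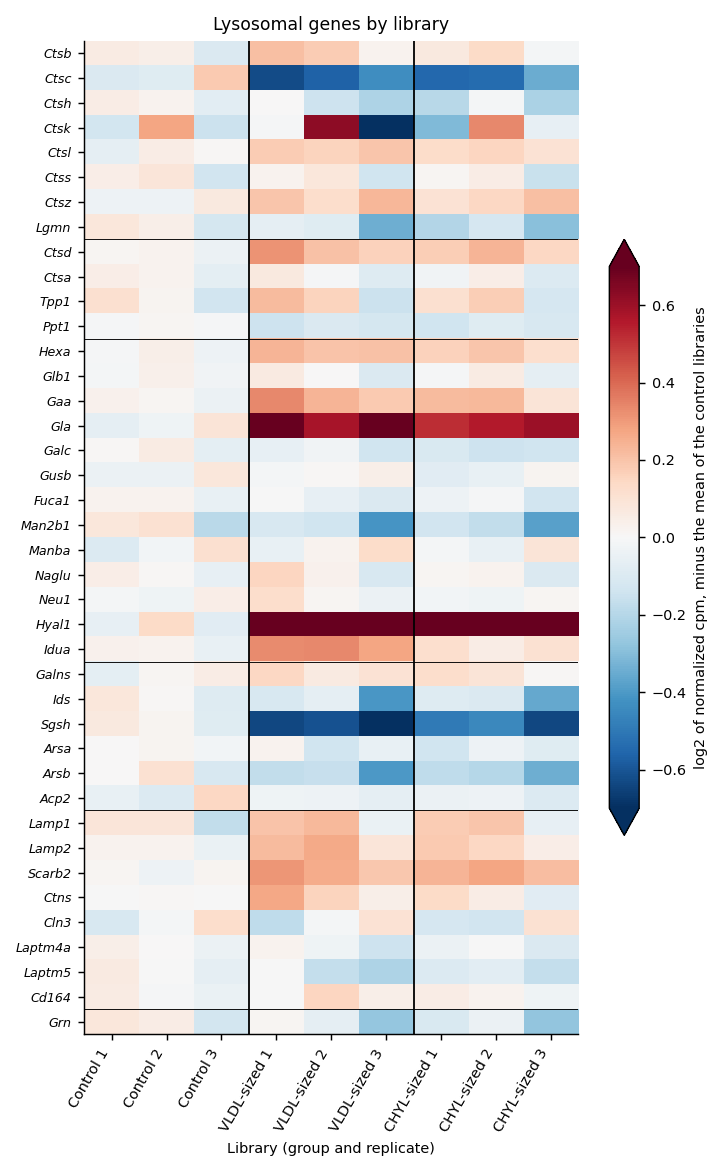
Level of the 40 genes in each of the 9 libraries, as the log2 of normalized cpm minus the mean of the 3 control libraries, with rows in order of role and colours capped at the ends of the scale. Hyal1 and Gla are red and Sgsh and Ctsc blue in all 6 particle libraries, and in many other rows the third column of each group is bluer than the first and second columns.

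The 2 particle sizes were compared directly, at the dose and time that the sample labels give for both. One description in the study names a lower dose for the CHYL-sized particles, so an unequal dose cannot be told apart from size if that description is right. None of the 40 genes, and 0% of all 12637, passed between VLDL-sized and CHYL-sized libraries with limma. At an unadjusted p under 0.05 there were 813 genes, 2 of them among the 40, Hyal1 and Idua. The quasi-likelihood test of edgeR called 0 genes, and DESeq2 called 12 higher and 12 lower, none among the 40. Hyal1 was higher after VLDL-sized than after CHYL-sized particles by a log2 difference of 0.37 (95% interval 0.16 to 0.57, adjusted p = 0.51) and Idua by 0.22 (0.07 to 0.37, adjusted p = 0.60). The groups did not overlap for 4 genes, Ctsl, Hexa, Hyal1 and Idua, all higher after VLDL-sized particles (11.3% of all genes had no overlap in either direction). For Hexa the groups nearly touched, at 591.99 normalized cpm in VLDL-sized replicate 2 and 591.67 in CHYL-sized replicate 2 (log2 difference 0.06, adjusted p = 0.90). Without the replicate 3 libraries Hyal1 passed, as 1 of the 40, against 1.15% of all genes higher and 0.92% lower. The 95% intervals of the difference, apart from Hyal1 and the low Ctsk, stayed within -0.28 to 0.37. Hence 9 genes passed against control after both particles and 5 after VLDL-sized particles alone (Ctsl, Ctsz, Ppt1, Idua and Lamp2), and for none of the 5 did the difference between the particles itself pass.

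Other lysosomal genes are counted here, from lists written from general knowledge but with earlier results of these data known. The counts are for VLDL-sized and then CHYL-sized particles, with the log2 fold changes in the same order. Of all genes tested 17.8% rose and 17.9% fell, and 12.7% rose and 13.0% fell. Of 26 tested hydrolases and activators outside the 40, 7 rose and 1 fell, and 4 rose and 1 fell. Lipa, the acid lipase, rose most (1.06 and 0.99, adjusted p = 2.16e-07 and 4.93e-07), going from 953 ± 56.4 in control to 1991 ± 18.0 and 1888 ± 56.7 normalized cpm. Of 22 other membrane proteins 6 rose and 1 fell, and 3 rose and 2 fell, led by the metal transporter Slc11a1 (1.20 and 1.15) and the chloride-proton exchanger Clcn7 (0.52 and 0.33), while Cln6 fell (-0.37 and -0.36). Of 12 genes of mannose 6-phosphate tagging and sorting 4 rose and 1 fell, and 3 rose and 2 fell. The sorting receptor gene Sort1 rose after VLDL-sized particles from 1.00 to 1.88 normalized cpm (0.88, and 0.41 with adjusted p = 0.28 after CHYL-sized particles), Sumf2, a paralogue of the sulfatase-modifying factor, rose (0.50 and 0.33), and Nagpa, which uncovers the mannose 6-phosphate tag, fell (-0.36 and -0.27).

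Of 4 tested cathepsin inhibitors 2 rose after both particles, the cystatin Cstb (0.47 and 0.46) and Serpinb6a (0.45 and 0.37). Of 19 tested subunits of the proton-pumping V-ATPase and members of the TFEB family 12 rose and 1 fell, and 10 rose and 1 fell. Tfec, a low-level member of that family, rose from 0.311 ± 0.129 to 1.50 ± 0.238 and 1.51 ± 0.260 normalized cpm (log2 fold change 2.27 and 2.28), and Tfeb fell from 34.3 ± 1.34 to 15.6 ± 2.41 and 18.8 ± 2.10 (-1.15 and -0.87). Atp6v1h, a subunit of the pump's cytosolic part, rose from 122 ± 2.12 to 213 ± 5.78 and 195 ± 4.15 normalized cpm (0.81 and 0.68). With library size alone the VLDL-sized counts of higher and lower genes became 2 and 2 for the hydrolases, 3 and 5 for the membrane proteins, 3 and 2 for tagging and sorting, 2 and 0 for the inhibitors and 9 and 1 for the pump and TFEB family. After CHYL-sized particles they became 2 and 2, 3 and 4, 2 and 2, 2 and 0, and 8 and 1. On the TMM scale the shares of all genes were 17.8% higher and 17.9% lower, and 12.7% higher and 13.0% lower. With library size alone they were 11.9% higher and 26.2% lower, and 8.45% higher and 19.9% lower. Each gene named above from these lists kept its direction and its call with library size alone. Of 10 macrophage markers 1 rose and 6 fell after VLDL-sized and 0 rose and 3 fell after CHYL-sized particles. The rise was that of Cd68 (0.17, and 0.13 with adjusted p = 0.089), also counted among the other membrane proteins above. The falls included Fcgr1 (-0.83 and -0.68) and Cd14 (-0.54 and -0.47). Csf1r, Adgre1 and Tyrobp passed in neither comparison. With library size alone 0 rose and 7 fell in both comparisons. Whether the lower marker levels share in the lysosomal results was not tested, and in these bulk samples less RNA per cell and fewer cells of a state cannot be told apart.

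**Figure D5:**
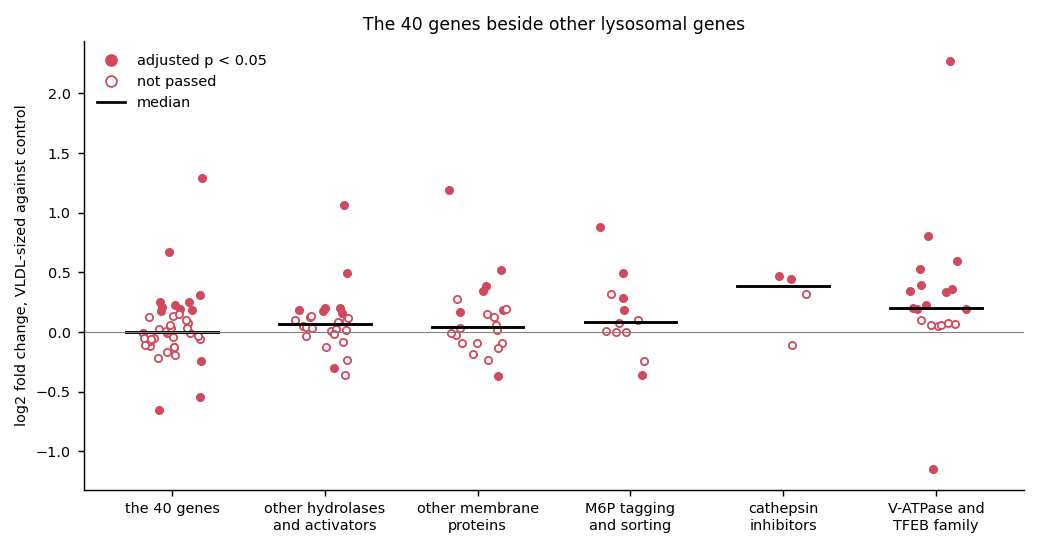
Log2 fold change after VLDL-sized particles against control for the 40 genes and for 5 lists of other lysosomal genes. The 40 genes and the lists were chosen with earlier results of these data known. Each point is a gene, filled where the adjusted p is under 0.05, and black bars are medians; the median lies at 0.0019 for the 40 genes and at 0.20 for the V-ATPase and TFEB family list.

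Some counts rest on regions that genes share. Exons of 18 of the 40 genes overlap those of another gene, including 9 of the 14 that passed, and no source used here states whether the counting used strand. For Hyal1 and Naa80 the values are given above. For Arsb, 32.3% of exon bases lie opposite Gm26527, which was at 32.2 ± 10.9 normalized cpm in control against 433 ± 32.8 for Arsb. Gm26527 was at 20.3 ± 2.86 and 20.8 ± 4.61 normalized cpm after VLDL-sized and CHYL-sized particles (log2 fold change -0.61, adjusted p = 0.092, and -0.58, adjusted p = 0.12), and its part in the fall of Arsb was not tested. Ctsd shares 34.4% of its exon bases with Gm49369, which had 6.77 ± 1.03 normalized cpm. Ppt1 lies opposite the far more abundant Cap1 (1726 ± 40.1 normalized cpm in control) over 3.51% of its exon bases, and Idua opposite Dgkq (8.03 ± 0.817) over 2.95%. Dgkq also rose after VLDL-sized particles, with a log2 fold change of 0.29 (adjusted p = 0.038).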

How the data were processed

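RNA of RAW 264.7 cells was sequenced by the authors in 9 libraries, and read numbers per transcript were estimated with Salmon 0.14.1 on GRCm38.p6. The deposited values are estimated counts, which the authors summed to genes with tximport. Their methods name a scaling to mean transcript length and sequencing depth, but 58.3% of the deposited values above 10 were whole to within 1e-06, as unscaled values would be. Groups and replicate numbers came from the sample labels.

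The 12637 genes above 10 counts in 3 libraries or more were fitted together with voom and limma 3.58.1 after TMM normalization (edgeR 4.0.16, R 4.3.3), with group as the only term and Benjamini-Hochberg adjustment (threshold 0.05). For edgeR's quasi-likelihood test and DESeq2 1.42.0, run as alternatives, counts were rounded. Normalized cpm used library size times TMM factor. Gene symbols (54346 of 54432), lengths and coordinates came from a GENCODE annotation of GRCm38. The fit was tested on simulated data.

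The 40 genes and the lists were chosen with earlier results of these data known. Library values are given for genes that passed in either comparison with control and for the 3 largest absolute log2 fold changes of each role, and from each other list the 2 largest rises and falls that passed after VLDL-sized particles are named. Some genes that this rule would name are not reported here. Naa80, Gm26527, Gm49369, Cap1, Dgkq, Apobr, Fcgr1, Cd14, Cd68, Csf1r, Adgre1, Tyrobp, Dcstamp and Nfatc1 are not covered by this rule, nor are members named for a call that changed. All of these were picked once their values were known.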

Additional observations from a re-analysis of the deposited data

How the results depend on the processing

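Ctsc, Gla, Hyal1, Sgsh and Scarb2 passed in both comparisons with control under all 19 alternatives, and Idua after VLDL-sized particles. Sign changes of values that passed in no setting were not counted, and no called value reversed. With library size alone, 4 genes rose and 7 fell after VLDL-sized and 3 rose and 6 fell after CHYL-sized particles, against 11.9% and 26.2%, and 8.45% and 19.9%, of all genes, and the median log2 fold change of the 40 became -0.091 and -0.096. Leaving out 1 library at a time gave 7 to 10 rises and 2 to 4 falls after VLDL-sized and 3 to 7 rises and 2 to 5 falls after CHYL-sized particles. The shares of all genes moved as well. After VLDL-sized particles 13.7% to 18.3% of all genes rose and 14.05% to 18.3% fell. After CHYL-sized particles 8.95% to 13.8% rose and 9.54% to 14.02% fell. Without the replicate 3 libraries there were 13 rises and 6 falls (22.02% and 21.4% of all genes), and 10 rises and 6 falls (17.4% and 16.4%). Between the particles 1 of the 40 genes (Hyal1) then passed, against 1.15% of all genes higher and 0.92% lower.

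With the replicate number as a block, 13 rose and 9 fell after VLDL-sized (24.1% and 23.8% of all genes) and 10 rose and 9 fell after CHYL-sized particles (19.5% and 19.6%), and between the particles 74 genes were higher and 73 lower, 0 of them among the 40. Genes that passed with the block and not without it were Ctsb, Lamp1, Ctns, Man2b1, Lgmn, Ids, Laptm5 and Grn after VLDL-sized particles (adjusted p = 0.00021 to 0.039) and Ctsl, Ctsz, Lamp1, Lamp2, Ppt1, Man2b1, Lgmn, Ids, Laptm5 and Grn after CHYL-sized particles (0.00023 to 0.032). The labels do not say that a number marks a shared experiment. Same-numbered libraries had correlated deviations from their group means for replicate 3 (0.22 to 0.28), while those of replicates 1 and 2 were between -0.00064 and 0.10. Differently numbered libraries of different groups had correlations of -0.0054 to 0.14 between replicates 1 and 2. Between replicate 3 and replicates 1 and 2 they were -0.21 to -0.076. These values cannot decide whether a number marks a shared experiment. The block was kept as an alternative, and the main fit leaves the shift of replicate 3 in its estimate of spread.

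Depth limits Ctsk, whose interval was the widest.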
